A study of Homo sapiens with 4 samples.

Results

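The signal recognition particle (SRP) was examined as the 3 genes of its RNA scaffold, RN7SL1, RN7SL2 and RN7SL3, beside the 6 genes for its proteins, SRP9, SRP14, SRP19, SRP54, SRP68 and SRP72. The genes were chosen by symbol, and all 9 matched a row among the 61543 genes of the deposited count table. The RNA came from the medium around HEK293T cells, an established line from human embryonic kidney, and was sequenced in 4 libraries. In 2 libraries the cells released EPN24-Cas13d, in which the EPN24 protein is joined to Cas13d, a CRISPR enzyme that a guide RNA directs to other RNAs. In the other 2 the cells released EPN24 alone, a protein that assembles into nanocages and leaves the cell. Per the labels' protocols, all cultures were grown in medium with fetal bovine serum. Supernatant was centrifuged and passed through a filter of 0.45 µm, spike-in RNA of known sequence (ERCC) was mixed into 200 µl of it, and the cDNA was amplified over 17 PCR cycles and read as 150-nt pairs. The sources used here do not say whether a guide RNA was present or how the constructs entered the cells. Total RNA of the supernatant was measured, so RNA inside nanocages is not told apart from RNA outside them.

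The SRP is a cytosolic complex of 7SL RNA and proteins that recognises the signal sequence of a protein as it emerges from the ribosome and brings that ribosome to its receptor on the endoplasmic reticulum, where the Sec61 channel takes over. SRP9 and SRP14 bind the Alu domain of the RNA and slow translation, SRP19 helps to assemble the other domain, SRP54 is the GTPase that holds the signal sequence, and SRP68 and SRP72 form a pair on the RNA. 7SL RNA is made by RNA polymerase III, is abundant in the cytoplasm, and is known for being carried out of cells in retroviral particles and vesicles, whereas the SRP proteins are encoded by ordinary polyadenylated messages.

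The counts of the RN7SL genes depend on how far reads can tell the copies apart, so their GENCODE 29 transcripts on GRCh38 were compared. RN7SL1 lies at chr14:49586580-49586878 on the + strand and is 299 nt long. RN7SL2 lies at chr14:49862550-49862849 on the - strand and is 300 nt long. RN7SL3 lies at chr14:49853616-49853914 on the - strand and is 299 nt long. Over 299 positions RN7SL2 differed from RN7SL1 at 4, an identity of 98.7%. RN7SL3 differed from RN7SL1 at 7, an identity of 97.7%. RN7SL1 and RN7SL2 shared an unbroken run of 205 nt, so 56 of the 150 windows of 150 nt in RN7SL1 occurred in RN7SL2 as well. RN7SL3 shared no such window with either, its longest shared run being 123 nt. A read within a shared run could not be placed on 1 gene by its sequence, so the split between RN7SL1 and RN7SL2 is less certain than their sum.

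Gene counts totalled 5097332 and 4863449 with EPN24-Cas13d, against 1830860 and 1903492 with EPN24. ERCC transcripts took 89588 and 82049 counts with EPN24-Cas13d, against 445118 and 502789 with EPN24. Gene counts per ERCC count were therefore 56.9 and 59.3 with EPN24-Cas13d, against 4.11 and 3.79 with EPN24. Because of that gap, every gene was compared on a pair of scales. TMM scaling compares a gene with the bulk of the other genes in its library, and ERCC scaling compares it with the added spike-in, that is per volume of supernatant. Of 20476 genes tested by edgeR's quasi-likelihood test, 80.9% passed an adjusted p of 0.05 with TMM scaling, 32.6% higher and 48.2% lower in EPN24-Cas13d, with a median log2 fold change of -0.96. With ERCC scaling 60.7% passed, 58.4% higher and 2.33% lower, with a median of 2.38. All 6 markers of HEK293 lines that were looked for had counts in every library. Their summed TMM-scaled CPM (counts scaled to a common library size) were 1953 and 1962 with EPN24-Cas13d, against 322 and 346 with EPN24, of which VIM was the largest part. Without VIM the other 5 summed to 149 and 141 CPM with EPN24-Cas13d, against 197 and 189 CPM with EPN24. With TMM scaling 3 of the 6 were higher, 2 lower and 1 did not pass. Hepatocyte markers summed to 1.44 and 3.02 CPM with EPN24-Cas13d and to 9.37 and 12.8 CPM with EPN24, and blood markers to 1.92 and 2.52 CPM against 19.6 and 19.9 CPM. The density of counts on 361 olfactory receptor genes, a measure of counts on genes that these cells should not use, was 0.0431 and 0.0355 CPM per kb with EPN24-Cas13d, against 0.823 and 0.681 CPM per kb with EPN24. The part of these marker and background levels in the differences given here was not tested, except where background was subtracted. Counts include PCR copies and carry no molecular identifiers, so intervals cover counting error only. The labels do not say that the 2 libraries of a group came from separate cultures, and the p-values therefore speak only of the spread among the 4 libraries.

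7SL RNA took a far smaller part of the gene counts with EPN24-Cas13d than with EPN24, and its amount per spike-in was lower by a smaller factor. RN7SL1, RN7SL2 and RN7SL3 together held 1.49% and 1.74% of gene counts with EPN24-Cas13d, against 34.7% and 37.9% with EPN24. The means were 1.61% ± 0.173 and 36.3% ± 2.31 (SD, n = 2 each), a share 22.5-fold lower in EPN24-Cas13d. The exact 95% binomial intervals (Clopper-Pearson) ran from 1.48% to 1.50% and from 1.73% to 1.75% with EPN24-Cas13d, and from 34.6% to 34.7% and from 37.9% to 38.0% with EPN24. Per ERCC count, the 3 genes together had 0.849 and 1.03 counts with EPN24-Cas13d, against 1.43 and 1.44 with EPN24. The means per ERCC count were 0.939 ± 0.1275 and 1.43 ± 0.00731 (SD, n = 2 each), a ratio of 0.657. Neither measure overlapped between the groups, and the two-sided exact permutation p was 0.333 for both, the smallest that 2 against 2 libraries can give. Over the same libraries, gene counts outside the RN7SL loci per ERCC count averaged 56.8 ± 1.51 with EPN24-Cas13d and 2.01 ± 0.238 with EPN24, a ratio of 28.3. The fall in the 7SL share thus stood beside a total of other gene counts that was far higher per spike-in in EPN24-Cas13d.

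**Figure D1:**
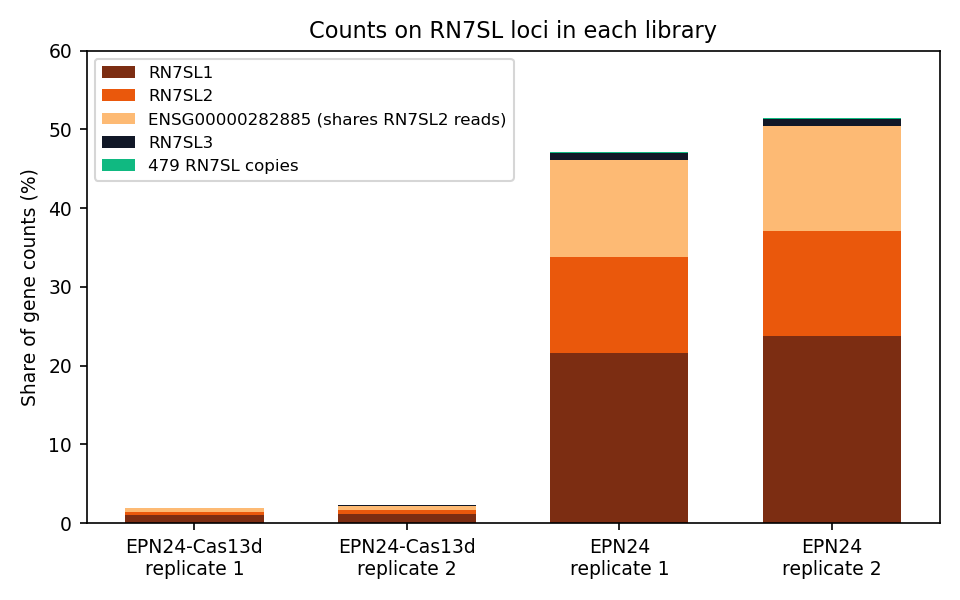
Stacked bars of the share of gene counts (percent, from 0) on each RN7SL gene, on ENSG00000282885, which shares the RN7SL2 exon, and on the 479 RN7SL copies, with 1 bar per library. The whole bars reached 1.96% and 2.30% with EPN24-Cas13d, against 47.1% and 51.4% with EPN24. RN7SL1 was the largest single part in every library, with RN7SL2 and ENSG00000282885 drawn apart. Together those rows exceeded RN7SL1 in EPN24, and whether their shared reads were counted in both or divided is not known.

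Gene by gene, all 3 RN7SL genes fell with TMM scaling, where 48.2% of all tested genes were lower. RN7SL1 (ENSG00000276168.1) had 49740 and 54627 counts with EPN24-Cas13d, against 394809 and 452042 with EPN24. Its fitted log2 fold change was -3.92 (approximate SE 0.12), with an edgeR adjusted p of 3.2e-12. RN7SL2 (ENSG00000274012.1) had 23620 and 26939 counts with EPN24-Cas13d, against 225224 and 253915 with EPN24, a log2 fold change of -4.15 (approximate SE 0.13, edgeR adjusted p 2.7e-12). RN7SL3 (ENSG00000278771.1) was the least abundant copy, with 2720 and 2907 counts with EPN24-Cas13d and 14526 and 16017 with EPN24. Its log2 fold change was -3.34 (approximate SE 0.11, edgeR adjusted p 4.5e-12). All 3 lay far below the median of all genes.

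Per spike-in the copies parted. RN7SL1 had 555 and 666 counts per 1000 ERCC counts with EPN24-Cas13d, against 887 and 899 with EPN24, a ratio of means of 0.684. RN7SL2 had 264 and 328 per 1000 ERCC counts with EPN24-Cas13d, against 506 and 505 with EPN24, a ratio of 0.586. Both were called lower by edgeR with ERCC scaling, RN7SL1 at a log2 fold change of -0.55 (adjusted p 0.00139) and RN7SL2 at -0.77 (adjusted p 0.000151), a direction that 2.33% of all tested genes took. RN7SL3 had 30.4 and 35.4 per 1000 ERCC counts with EPN24-Cas13d, against 32.6 and 31.9 with EPN24. Its groups overlapped, and the log2 fold change of 0.03 (approximate SE 0.13) did not pass edgeR's test at an adjusted p of 0.863. The RN7SL1 call was lost without replicate 1 of EPN24-Cas13d, where its log2 fold change was -0.42 with an edgeR adjusted p of 0.0747. In the authors' deposited table, where the values are close to the ERCC scale, RN7SL1 stood at -0.58 with an adjusted p of 0.0682 and RN7SL2 at -0.81 with an adjusted p of 0.00575.

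The proportions among the copies differed between the groups as well. RN7SL3 had 5.47 and 5.32 counts per 100 RN7SL1 counts with EPN24-Cas13d, against 3.68 and 3.54 with EPN24. RN7SL2 had 0.475 and 0.493 counts per RN7SL1 count with EPN24-Cas13d, against 0.570 and 0.562 with EPN24. RN7SL3 was thus the larger and RN7SL2 the smaller relative to RN7SL1 in EPN24-Cas13d, with no overlap in either ratio and an exact permutation p of 0.333 for each, the smallest possible. As a share of RN7SL1 and RN7SL3 counts together, RN7SL3 made up 5.18% (exact 95% binomial interval 5.00% to 5.38%) and 5.05% (4.88% to 5.23%) with EPN24-Cas13d. The same share was 3.55% (3.49% to 3.61%) and 3.42% (3.37% to 3.47%) with EPN24. RN7SL3 is the copy that shared no 150-nt window with the others. The RN7SL2 ratio rests on reads that the shared run of 205 nt leaves ambiguous.

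Other annotated rows carry the same reads or near copies of the RNA. ENSG00000282885, a long noncoding RNA at chr14:49861176-49864326 on the same strand, shares all 300 bp of RN7SL2 with its exons. Its counts exceeded those of RN7SL2 by 2 and 0 with EPN24-Cas13d and by 8 and 12 with EPN24, and it was kept out of the sums. The sources used here do not say whether such reads were counted in both rows or divided between them. With this row added to RN7SL2, the pair had 0.950 and 0.986 counts per RN7SL1 count with EPN24-Cas13d, against 1.14 and 1.12 with EPN24. Since the row nearly repeats the RN7SL2 counts, this sum carries no further information on the groups. A further 479 rows are named as RN7SL pseudogene copies, scattered over the genome. They had 381 and 396 counts in all with EPN24-Cas13d, against 2560 and 2548 with EPN24, or 0.766 and 0.726 per 100 RN7SL1 counts against 0.648 and 0.564. Of these rows 68 had a count in EPN24-Cas13d and 344 in EPN24, and 6 passed the filter on low counts. All 6 were lower with TMM scaling, against 48.2% of all tested genes, with a median log2 fold change of -3.88. The filter could be met by the EPN24 libraries alone, as it was for RN7SL674P. For such a row a lower value was largely set by the filter, so the count of 6 is no separate support. None of the 6 passed with ERCC scaling, against 60.7% of all tested genes, and their median was then -0.59. RN7SL5P led with 218 and 216 counts with EPN24-Cas13d, against 1233 and 1222 with EPN24 (TMM log2 fold change -3.40). Its transcript matched RN7SL1 at 99.6% of 235 aligned positions. RN7SL4P, with an identity of 97.0% over 235 positions, had 76 and 98 counts with EPN24-Cas13d, against 584 and 655 with EPN24 (-3.73). RN7SL674P had 0 and 4 counts with EPN24-Cas13d, against 8 and 10 with EPN24 (-2.97, edgeR adjusted p 0.00971). Its call was lost with the DESeq2 Wald test, with no filter, with a replicate block and without either EPN24 replicate, at adjusted p-values from 0.0643 to 0.306. With the copies and ENSG00000282885 added, all RN7SL loci held 2.13% ± 0.237 of gene counts with EPN24-Cas13d and 49.3% ± 3.04 with EPN24 (SD, n = 2 each).

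The messages for the SRP proteins were rare in both groups and did not move as a block. With TMM scaling 1 of 6 rose, SRP68, and 5 fell, against 32.6% and 48.2% of all tested genes. The median log2 fold change of the 6 was -2.64. SRP14, SRP19 and SRP54 met the filter on low counts in both EPN24 libraries but not in both EPN24-Cas13d libraries. A fall was favoured for them by the filter, so the count of falls and the median are no separate support. With ERCC scaling 2 of 6 rose, SRP68 and SRP72, none fell and 4 did not pass, against 58.4% higher and 2.33% lower over all genes. The median of the 6 was then 0.72, below the 2.38 of all genes. SRP68 alone made up 83.4% and 84.8% of the SRP message counts with EPN24-Cas13d, against 27.5% and 26.9% with EPN24.

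SRP9 and SRP14, the Alu-domain pair, were both lower with TMM scaling. SRP9 (ENSG00000143742.14, chr1:225777813-225790468, + strand) had 19.5 and 20.5 counts with EPN24-Cas13d, against 74 and 92 with EPN24. Its level was 4.92 ± 0.334 CPM with EPN24-Cas13d and 38.3 ± 7.46 CPM with EPN24 (SD, n = 2 each), a log2 fold change of -2.95 (edgeR adjusted p 1.7e-06). SRP14 (ENSG00000140319.11, chr15:40035690-40039181, - strand) had 20 and 10 counts with EPN24-Cas13d, against 110 and 94 with EPN24. Its level was 3.66 ± 1.62 CPM with EPN24-Cas13d and 46.8 ± 3.23 CPM with EPN24, a log2 fold change of -3.65 (edgeR adjusted p 2.6e-07). SRP14 had the largest TMM-scaled fall of the 6 messages. Per 1000 ERCC counts, SRP9 had 0.218 and 0.250 with EPN24-Cas13d against 0.166 and 0.183 with EPN24. SRP14 had 0.223 and 0.122 per 1000 ERCC counts with EPN24-Cas13d against 0.247 and 0.187 with EPN24. Neither passed edgeR's test with ERCC scaling, SRP9 at a log2 fold change of 0.42 (adjusted p 0.363) and SRP14 at -0.32 (adjusted p 0.549), and the groups overlapped for SRP14. The ratio of SRP9 to SRP14 counts was 0.975 and 2.05 with EPN24-Cas13d, against 0.673 and 0.979 with EPN24, with overlap and an exact permutation p of 0.667.

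SRP19 and SRP54, which serve the signal-binding domain, also fell with TMM scaling and rested on the fewest counts. SRP19 (ENSG00000153037.15, chr5:112861188-112898371, + strand) had 25.3 and 13.3 counts with EPN24-Cas13d, against 49.7 and 52.3 with EPN24, a log2 fold change of -2.32 (approximate SE 0.40, edgeR adjusted p 0.000139). Its exons overlap those of ZRSR2P1 by 1470 bp and of ENSG00000258864 by 439 bp on the same strand and of REEP5 by 368 bp on the other strand, so some of its counts may belong to those rows. SRP54 (ENSG00000100883.13, chr14:34981957-35029686, + strand) had 20 and 4 counts with EPN24-Cas13d, against 65 and 41 with EPN24, a log2 fold change of -3.03 (approximate SE 0.52, edgeR adjusted p 0.000148). The EPN24-Cas13d library with 4 counts lay just above the floor of 3 counts. Per 1000 ERCC counts SRP19 had 0.283 and 0.162 with EPN24-Cas13d, against 0.112 and 0.104 with EPN24, a ratio of means of 2.06. That difference did not pass edgeR's test with ERCC scaling (log2 fold change 1.03, adjusted p 0.0614), and it passed with counts halved (1.10, adjusted p 0.0278) and without replicate 1 of EPN24 (1.09, adjusted p 0.0305). SRP54 had 0.223 and 0.0488 per 1000 ERCC counts with EPN24-Cas13d and 0.146 and 0.0815 with EPN24, which overlapped, and did not pass (0.28, adjusted p 0.723). The length used, over all annotated exons and not that of a single message, was 10517 bp for SRP19 and 8477 bp for SRP54. Both had little signal per kb of that length. Their levels in EPN24 were 2.23 CPM per kb for SRP19 and 2.85 CPM per kb for SRP54, beside an olfactory receptor density of 0.823 and 0.681 CPM per kb in the same libraries.

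SRP68 and SRP72, whose proteins form a pair, did not move together: SRP68 rose on both scales, and SRP72 fell with TMM scaling and rose with ERCC scaling. SRP68 (ENSG00000167881.15, chr17:76038775-76072517, - strand) had 1047 and 779 counts with EPN24-Cas13d, against 156 and 142 with EPN24. Its level was 224 ± 39.3 CPM with EPN24-Cas13d and 68.4 ± 1.67 CPM with EPN24 (SD, n = 2 each), a log2 fold change of 1.71 (approximate SE 0.16, edgeR adjusted p 2.3e-07). Per 1000 ERCC counts it had 11.7 and 9.49 with EPN24-Cas13d, against 0.350 and 0.282 with EPN24, a ratio of means of 33.5 and a log2 fold change of 5.07 (edgeR adjusted p 1.6e-10). With total counts outside the RN7SL loci as the scale, its log2 fold change was 0.25 with an edgeR adjusted p of 0.155, and its share of those counts was 0.0210% and 0.0164% with EPN24-Cas13d against 0.0161% and 0.0154% with EPN24. SRP72 (ENSG00000174780.17, chr4:56467617-56503681, + strand) had 124 and 92 counts with EPN24-Cas13d, against 112 and 106 with EPN24. Its TMM log2 fold change was -0.92 (approximate SE 0.22, edgeR adjusted p 0.00200), close to the median of -0.96 over all genes. Its ERCC log2 fold change was 2.44 (edgeR adjusted p 2.7e-06), close to the median of 2.38. The TMM call for SRP72 was lost without replicate 2 of EPN24-Cas13d (-0.75, adjusted p 0.100) and with no filter on low counts (-0.55, adjusted p 0.0567). SRP68 had 8.44 and 8.47 counts per SRP72 count with EPN24-Cas13d, against 1.39 and 1.34 with EPN24, a ratio of means of 6.19 (exact permutation p 0.333, the smallest possible). SRP68 made up 89.4% (exact 95% binomial interval 87.5% to 91.1%) and 89.4% (87.2% to 91.4%) of the counts of this pair with EPN24-Cas13d. The same share was 58.2% (52.1% to 64.2%) and 57.3% (50.8% to 63.5%) with EPN24.

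**Figure D2:**
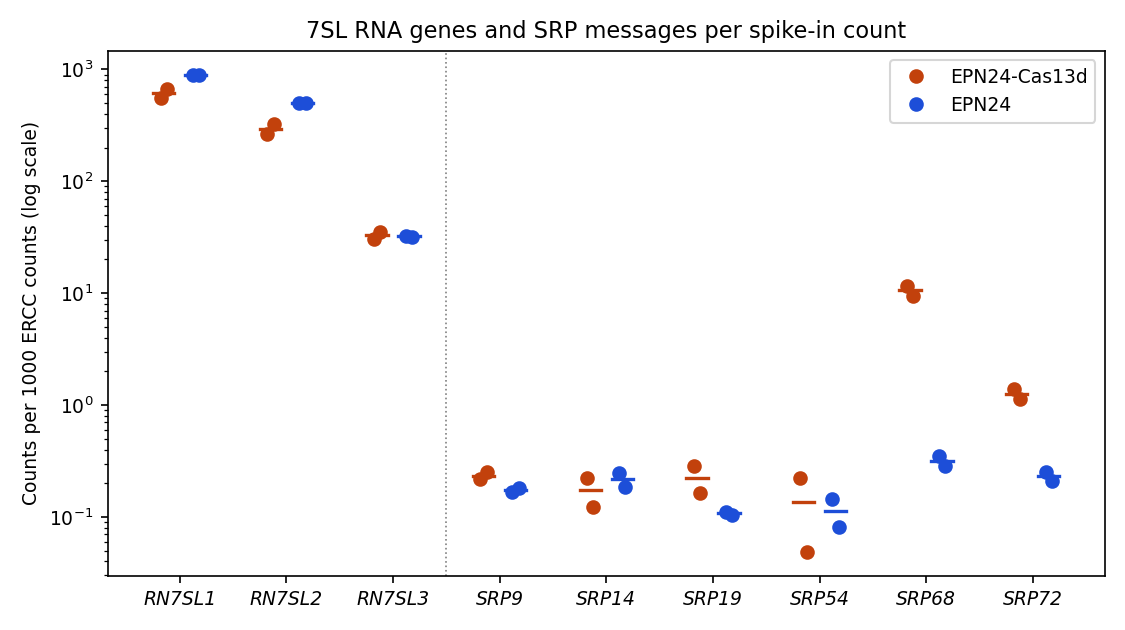
Counts per 1000 ERCC counts (log axis) of each member in each library, with the mean of each group as a bar. SRP68 and SRP72 stood higher with EPN24-Cas13d (ratios of means 33.5 and 5.42), and RN7SL1 and RN7SL2 stood lower (0.684 and 0.586).

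Set against each other within a library, the RNA scaffold and the messages of its partners gave different ratios in the groups. There were 60.6 and 91.9 RN7SL counts for each SRP message count with EPN24-Cas13d, against 1120 and 1369 with EPN24. The means were 76.3 ± 22.2 and 1244 ± 176 (SD, n = 2 each), a ratio 16.3-fold lower in EPN24-Cas13d, with no overlap and an exact permutation p of 0.333, the smallest possible. Counted per kb of each gene, the ratio was 1389 and 2096 with EPN24-Cas13d, against 15308 and 18087 with EPN24. As parts of this contrast, the SRP messages together had 14.0 and 11.2 counts per 1000 ERCC counts with EPN24-Cas13d, against 1.27 and 1.05 with EPN24, a ratio of means of 10.9. Their share of gene counts was 0.0246% and 0.0189% with EPN24-Cas13d, against 0.0310% and 0.0277% with EPN24. The message sum depended on SRP68. Without SRP68, a choice made after seeing the data, the messages per ERCC count were 2.37-fold higher in EPN24-Cas13d and the RN7SL counts per message count 3.63-fold lower, both as ratios of geometric means. The direction of the message share depended on its scale, with a log2 difference of -0.44 as counts and 1.19 as counts per kb.

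**Figure D3:**
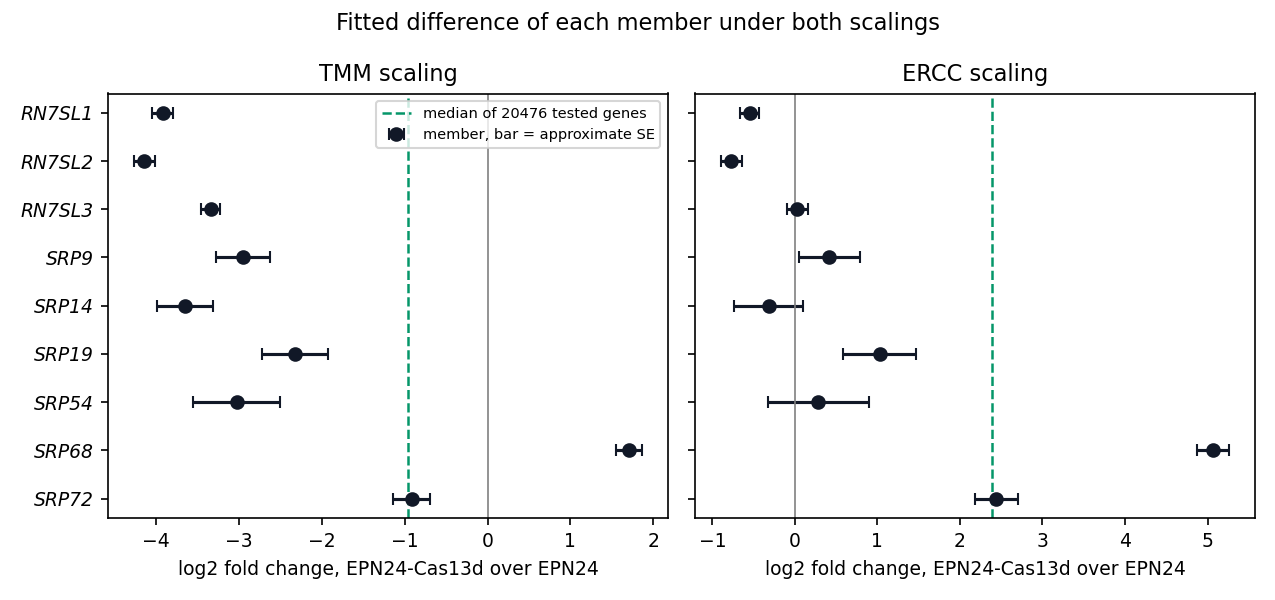
Fitted log2 fold change (EPN24-Cas13d over EPN24) of each member under TMM scaling, left, and ERCC scaling, right, with the approximate SE as bars and the median of all tested genes dashed. RN7SL1, RN7SL2 and RN7SL3 lay at -3.92, -4.15 and -3.34 with TMM scaling and at -0.55, -0.77 and 0.03 with ERCC scaling, and SRP68 lay at 1.71 and 5.07.

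The order of the levels, given per kb of annotated exon, also differed among the messages. That length covers all annotated exons, 2047 bp for SRP14 and 10517 bp for SRP19, and the order depends on it. As CPM with EPN24-Cas13d, not divided by length, SRP9 had 4.92, SRP19 4.72, SRP14 3.66 and SRP54 2.91. With EPN24-Cas13d the RN7SL genes came at 42986 CPM per kb for RN7SL1, 20763 for RN7SL2 and 2317 for RN7SL3, and the messages followed at 29.8 for SRP68, 4.31 for SRP72, 2.22 for SRP9, 1.79 for SRP14, 0.449 for SRP19 and 0.343 for SRP54. With EPN24 the order of the RN7SL genes was the same, at 652328, 367766 and 23514 CPM per kb. That order takes RN7SL2 without ENSG00000282885. With that row added, RN7SL2 had 1.14 and 1.12 counts per RN7SL1 count in EPN24. The messages followed at 22.9 CPM per kb for SRP14, 17.2 for SRP9, 9.11 for SRP68, 8.15 for SRP72, 2.85 for SRP54 and 2.23 for SRP19. Per kb, SRP68 was the leading message with EPN24-Cas13d, and SRP14 and SRP9 led with EPN24. As CPM not divided by length, SRP68 led the messages in both groups, at 224 CPM with EPN24-Cas13d and 68.4 CPM with EPN24. Neighbours in the order per kb that overlapped between libraries were SRP9 with SRP14 and SRP19 with SRP54 in EPN24-Cas13d, and SRP54 with SRP19 in EPN24.

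Genes that act with the particle were followed as lists. The receptor that docks the SRP has a pair of subunits, and both rose. SRPRA, the GTPase subunit, had 168 ± 2.41 CPM with EPN24-Cas13d and 19.2 ± 6.33 CPM with EPN24 (SD, n = 2 each), a TMM log2 fold change of 3.13 and an ERCC log2 fold change of 6.50. SRPRB, the membrane anchor, had 29.1 ± 1.06 CPM with EPN24-Cas13d and 6.99 ± 0.517 CPM with EPN24, at 2.07 and 5.42 on those scales. The call for SRPRB was lost with total counts outside the RN7SL loci as the scale (0.61, edgeR adjusted p 0.119). The receptor messages thus differed in the direction of SRP68 and not of the other 5 SRP messages with TMM scaling. Of 12 genes of the Sec61 translocon and its partners, 11 were tested. With TMM scaling 3 rose, 5 fell and 3 did not pass, with a median of -0.0047, shares near the 32.6% higher and 48.2% lower of all tested genes. With ERCC scaling 8 rose, none fell and 3 did not pass, against 58.4% higher over all genes, with a median of 3.34. The list ran from SEC61A1, the channel subunit, at 3.40 (298 ± 12.5 CPM with EPN24-Cas13d and 28.3 ± 3.19 CPM with EPN24) to TRAM1, a membrane protein beside the channel, at -2.93 (2.94 ± 0.600 CPM with EPN24-Cas13d and 22.8 ± 1.93 CPM with EPN24). Of the 5 that fell, SEC61B, SEC62 and TRAM1 met the filter on low counts in both EPN24 libraries but not in both EPN24-Cas13d libraries. TRAM1 had 14 and 10 counts with EPN24-Cas13d. A fall was favoured for these genes by the filter, so the count of 5 falls is no separate support. All 5 signal peptidase messages, for the enzyme that removes the signal sequence, fell with TMM scaling (median -2.66, against 48.2% of all genes lower). None passed with ERCC scaling (median 0.68, against 60.7% of all genes called). Most of these messages met the filter on low counts only within EPN24, as SPCS2 did with 2 and 2 counts in EPN24-Cas13d. Their fall was therefore largely set by the filter, and the count of 5 is no separate support. SPCS1 was the least negative of them at -2.50, and SPCS2 the most at -4.34. With the GC trend removed, neither passed edgeR's test, SPCS1 at -0.44 (adjusted p 0.522) and SPCS2 at -1.10 (adjusted p 0.255), and TRAM1 stood at 0.47 (adjusted p 0.349). Relative to the median of all genes in that fit, SPCS1 was at -1.12, SPCS2 at -1.78 and TRAM1 at -0.21.

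Factors that meet the nascent chain by other routes differed in direction. NACA and BTF3, which form the nascent polypeptide-associated complex on the ribosome, both fell with TMM scaling, at -2.92 and -2.53. With ERCC scaling BTF3 rose (0.83, edgeR adjusted p 0.00477) and NACA did not pass (0.45, edgeR adjusted p 0.108). Both depended on single libraries: the BTF3 call was lost without replicate 1 or without replicate 2 of EPN24-Cas13d (adjusted p 0.133 and 0.0688), and NACA passed without replicate 2 of EPN24 (adjusted p 0.0109). Of 7 messages of the pathway that inserts tail-anchored proteins without the SRP, 5 rose and 2 fell with TMM scaling, against 32.6% and 48.2% of all genes, with a median of 3.41. All 7 rose with ERCC scaling, against 58.4% of all genes, with a median of 6.76. UBL4A, a subunit of its early complex, was at 4.88 and GET1, a subunit of its receptor, at -1.93 with TMM scaling. GET1, with 10 and 23.5 counts in EPN24-Cas13d, met the filter on low counts in both libraries of EPN24 only. A fall was therefore favoured for it by the filter. The TMM call for GET1 was lost without replicate 2 of EPN24 (-1.39) and with the GC trend removed (0.0029, edgeR adjusted p 0.996). Relative to the median of all genes in the GC fit, GET1 was at -0.67. The ERCC call for GET1 was lost without replicate 2 of EPN24-Cas13d (0.61). SSB, the La protein that binds new RNA polymerase III transcripts, had 1.49 ± 0.744 CPM with EPN24-Cas13d and 31.3 ± 3.92 CPM with EPN24, a TMM log2 fold change of -4.37. With ERCC scaling it did not pass (-1.03, edgeR adjusted p 0.116). SSB had 4 and 8 counts with EPN24-Cas13d, against 64 and 72 with EPN24. It met the filter on low counts only within EPN24, so a fall with TMM scaling was favoured for it.

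Other RNAs made by RNA polymerase III had values near those of the RN7SL genes before the GC trend was removed. Of 11 listed, 5 were tested, and all 5 fell with TMM scaling, against 48.2% of all genes, with a median of -3.73 once RNY4 was set at its bound. RPPH1, the RNA of ribonuclease P, had 1262 and 1187 counts with EPN24-Cas13d, against 11010 and 12958 with EPN24. RNY1, a Y RNA, had the least negative fitted value at -3.30, with 50 and 34 counts with EPN24-Cas13d against 215 and 228 with EPN24. RNY4, another Y RNA, had no count with EPN24-Cas13d and 14 and 12 with EPN24. It was at least 8.08-fold lower in TMM-scaled CPM when 3 counts per library were taken as the floor. Because RNY4 passed the filter on its EPN24 counts alone, its fall is no separate support for that of the list. Its TMM call was lost without replicate 1 of EPN24 (edgeR adjusted p 0.0636). With ERCC scaling 2 of the other 4 fell, against 2.33% of all genes, and 2 did not pass. RNY4 could not be judged on that scale, because the floor in EPN24-Cas13d, 0.0350 per 1000 ERCC counts, lay above its level of 0.0277 in EPN24. For the 3 RN7SL genes the TMM median was -3.92, and 2 of 3 fell with ERCC scaling. With the GC trend removed, RNY1 was at -1.12 (edgeR adjusted p 0.00172), whereas RN7SL1, RN7SL2 and RN7SL3 were at -4.86, -5.05 and -4.18. RNY4, with no count in EPN24-Cas13d, was fitted at -6.09 there. The rest of the list was not followed in that fit.

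**Figure D4:**
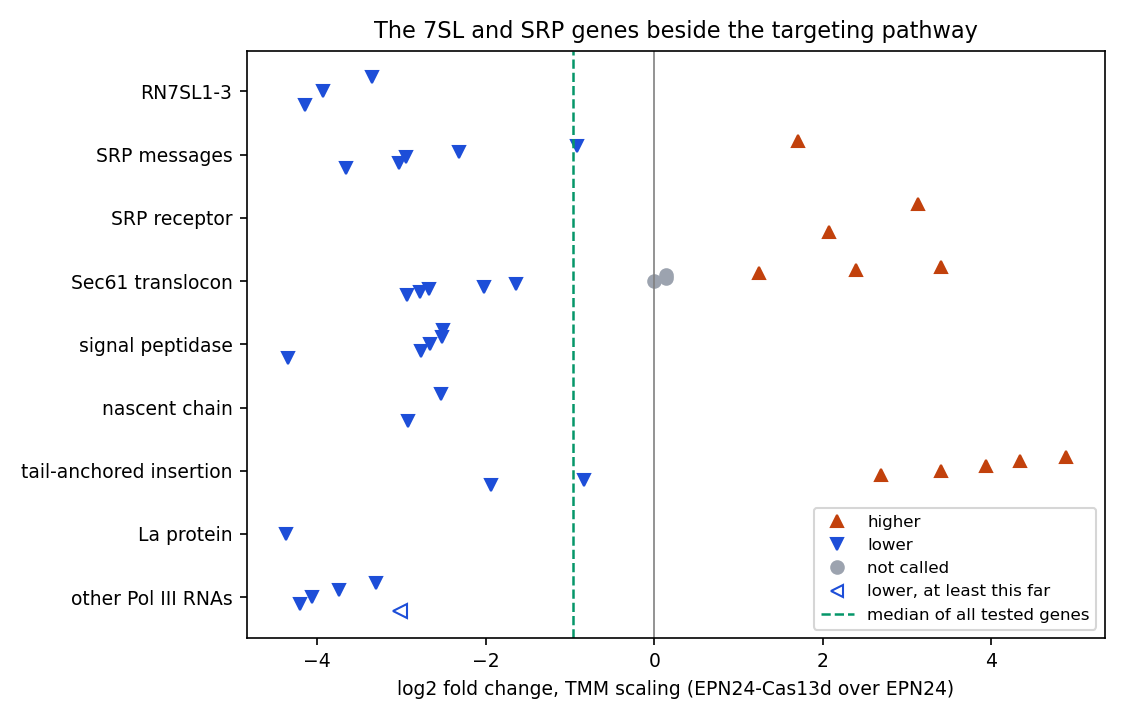
TMM-scaled log2 fold change (EPN24-Cas13d over EPN24) of each tested gene, one row per list, with the median of all tested genes dashed; triangles mark called genes, circles genes that did not pass, and the open triangle RNY4 at its bound. Both receptor subunits lie to the right of 0, whereas all RN7SL genes, signal peptidase messages and RNA polymerase III transcripts lie to the left. RNY4, SSB and most signal peptidase messages passed the filter on low counts only within EPN24. SRP14, SRP19, SRP54, SEC61B, SEC62, TRAM1 and GET1 met it in both EPN24 libraries but not in both EPN24-Cas13d libraries.

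The fold changes of all genes moved with GC content, and the members spanned its range. Over 19924 tested genes with a GENCODE 29 transcript, the Spearman correlation of GC content with TMM log2 fold change was 0.467, and that of gene length was 0.0192, both given as descriptions across genes of the same 4 libraries. In the bin from 35% to 40% GC, 84.6% of genes were lower and the median was -2.97, and SRP9, with 37.1% GC, stood at -2.95. In the bin from 40% to 45% the median was -2.07, and it held SRP14, SRP19, SRP54 and SRP72, at values from -3.65 to -0.92. SRP68, with 51.2% GC, stood at 1.71 in a bin with a median of 0.21 and an upper quartile of 2.12. The RN7SL genes, at 62.2% to 62.9% GC, lay in a bin with a median of 1.85 and a lower quartile of -0.61. All 3 were below that quartile, whereas the messages other than SRP14 lay within the quartiles of their bins. With the GC trend removed, an alternative added after seeing the data, the RN7SL genes were at -4.86, -5.05 and -4.18 and SRP68 at 2.64, with a median of 0.68 over all genes. In that fit SRP14 was at -1.32 and remained called, SRP9 (0.64, edgeR adjusted p 0.128), SRP19 (0.064, adjusted p 0.898) and SRP54 (-0.26, adjusted p 0.680) did not pass, and SRP72 was higher at 2.11 (adjusted p 4.7e-06).

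**Figure D5:**
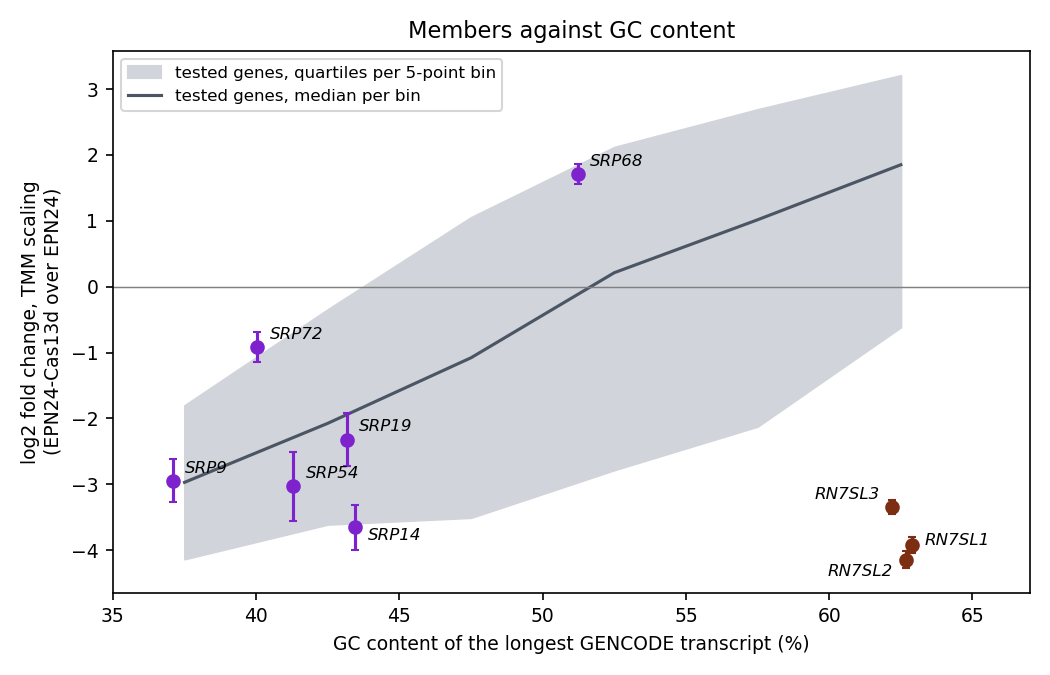
TMM-scaled log2 fold change (EPN24-Cas13d over EPN24) of each member against the GC content of its longest transcript in percent, with the approximate SE as bars, over the median and quartiles of all tested genes per 5-point bin. The RN7SL genes lie at the lower right, below the lower quartile of -0.61, and SRP68 lies between the median of 0.21 and the upper quartile of 2.12 of its bin.

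Genes with the most similar pattern over the 4 libraries were sought among 6545 candidates of at least 20 CPM, as the smallest Euclidean distance between mean-centred log2(CPM + 1) values. Nearest to the summed RN7SL genes were IGFN1 (distance 0.113), RPL38, a ribosomal protein gene (0.182), TRAK2 (0.195), HNRNPA3 (0.254) and RBM25 (0.256). IGFN1 had only 2.16 and 3.02 CPM with EPN24-Cas13d, where the added 1 weighs on its distance, and met the filter on low counts only within EPN24. With the GC trend removed, these genes were at -4.47, -2.76, -1.31, -0.30 and -1.08 in the order named. RN7SL1, RN7SL2 and RN7SL3 were at -4.86, -5.05 and -4.18 in that fit. Nearest to SRP68 were SLC35F2 (0.0454), PPM1M (0.0796) and SLC29A1 (0.107), and nearest to SRP14 were H2BC4, a histone gene (0.0502), RPLP2, a ribosomal protein gene (0.0653) and MT-ND3, a mitochondrial gene (0.0995). With 2 libraries in each group, this likeness reflects the size of the group difference and the spread within pairs. The RN7SL loci were left out of the candidates, and SRP19 and SRP54 lay under the limit of 20 CPM, so none of these could appear. Of the SRP genes that could, SRP9, SRP14, SRP68 and SRP72, none was among the neighbours.

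In the authors' deposited table the members' log2 fold changes were within 0.0554 of the ERCC-scaled fit given here. That table has SRP68 at 5.03 and SRP72 at 2.40, with adjusted p-values of 2.7e-55 and 4.2e-09. It has RN7SL3 at -0.0080, SRP9 at 0.39, SRP14 at -0.36, SRP19 at 0.99 and SRP54 at 0.23, none with an adjusted p under 0.05. The call of RN7SL1 was the only one among the 9 members to fall on different sides of that threshold in the authors' deposited table and in the edgeR fit.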

How the data were processed

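Total RNA of HEK293T supernatant was sequenced from 2 EPN24-Cas13d and 2 EPN24 libraries, grouped by sample title. Per the submitters' processing notes, the tools were STAR 2.7.10a, featureCounts 2.0.1, DESeq2 1.36.0, FastQC 0.11.9 and Trim Galore 0.6.7, and the builds GRCh38 and hg38. The sources used here do not give the annotation release or the options for strand and multi-mapping reads. What the authors deposited are expected counts for each gene, not normalized, of which 7.83% to 9.20% in each library held a fraction. Whether fractions came from multi-mapping or overlapping reads was not tested. The authors' deposited DESeq2 table gives a mean normalized count (signal), log2 fold changes with their errors, a Wald statistic (score) and p-values. Gene symbols came from it, and coordinates and lengths came from the count table. Of 61640 rows, 5 were left out, all pieces of a single gene's broken row.

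Rounded counts were tested with edgeR 4.0.16 (R 4.3.3) over all 20476 genes kept by filterByExpr. A gene could pass that filter through the libraries of a single group. The robust quasi-likelihood fit was used, and genes were called at a Benjamini-Hochberg adjusted p under 0.05. TMM factors left out the ERCC rows, and ERCC scaling took the ERCC total as library size. The approximate SE was obtained by dividing the size of the log2 fold change by the root of its F statistic. The scripts were tested on simulated data. Single values were compared by two-sided exact permutation. A floor of 3 counts per library was 0.721 and 0.755 CPM in EPN24-Cas13d and 1.34 and 1.42 CPM in EPN24, and no member was under it. GC content was taken from each gene's longest GENCODE 29 transcript, found for 97.3% of tested genes. RN7SL transcripts were compared in GENCODE 29, whose coordinates match the deposited ones, and their sequences are not reported here.

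The members, the gene lists and the alternatives were chosen with earlier results of these data known. Named from each list are the tested genes with the highest and lowest TMM log2 fold change, all genes of lists of 2 or fewer, and the 3 RN7SL copies with the most counts. RPPH1 was added after its values were seen. RMRP has identical counts under a second identifier and was counted once. Alternatives were DESeq2 1.42.0 and its size factors, total counts with and without the RN7SL loci, other filters, counts halved (as when both mates are counted), a replicate block and each library left out.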

Additional observations from a re-analysis of the deposited data

How the results depend on the processing

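With TMM scaling, members kept direction and call in 110 of 117 comparisons with an alternative, 4 lost the call and 3 reversed. With the GC trend removed, which was chosen after seeing the data, the reversed log2 fold changes were 0.64 for SRP9, 0.064 for SRP19 and 2.11 for SRP72. Among named genes they were 0.47 for TRAM1 and 0.0029 for GET1. The zero of that fit is shifted, with a median of 0.68 over all genes. Relative to that median SRP9, SRP19, TRAM1 and GET1 were at -0.035, -0.61, -0.21 and -0.67, and SRP72 was at 1.43. How far the shift made these reversals was not tested. With ERCC scaling 56 of 63 stayed, 2 gained a call, 1 lost it and 4 reversed. All 4 were values that had not passed, each with a library left out, so the ranges spanned 0: -0.087 to 0.14 for RN7SL3, -0.83 to 0.042 for SRP14 and -1.21 to 0.97 for SRP54, and likewise -0.24 to 1.46 for SPCS1 and -0.18 to 0.25 for RNY1. SRP54 was at -0.075 without replicate 2 of EPN24.

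Leaving out each library in turn gave log2 differences of -4.60 to -4.38 for the RN7SL share, -0.75 to -0.47 for RN7SL per ERCC count, -0.63 to -0.25 for the SRP message share, 3.28 to 3.60 for SRP messages per ERCC count and -4.35 to -3.75 for RN7SL counts per message count. The SRP message share reversed to 1.19 as counts per kb, and was -1.39 with the RN7SL loci left out of the total, -2.63 without SRP68 and -0.28 with background subtracted. The genes called numbered 16556 with TMM scaling and 9669 with at least 10 counts and 10 CPM, where 11735 genes were tested. With a library left out they ranged from 11993 to 15469 with TMM scaling and from 11971 to 12653 with ERCC scaling, where counts halved gave 11238. Of the TMM calls 40.4% were higher, against 22.5% with the total outside the RN7SL loci and 96.2% with ERCC scaling. The share was 67.3% with the GC trend removed, where the zero was shifted and the median of all genes was 0.68. A replicate block left 15041 calls with TMM scaling and 12075 with ERCC scaling and changed no member's call. The replicate numbers did not pair the samples, with a correlation of deviations of -0.0033 over 20476 genes.

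With 2 libraries in each group, no permutation p can reach 0.05. SRP9, SRP14, SRP19 and SRP54 rest on 4 to 25.3 counts per EPN24-Cas13d library, which limits their precision. RNY4, SPCS2 and RN7SL674P had no value where a stricter filter or halved counts removed them. With a library left out, the lone library of its group was assumed to vary like the other group.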
